A study of Mus musculus with 4 samples.

Results

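Sphingosine-1-phosphate (S1P) is a lipid signal that acts on cells through a family of G protein-coupled receptors. The genes described here are its 5 receptors (S1pr1 to S1pr5), the kinases that make it (Sphk1 and Sphk2), the exporter Spns2 and the lyase Sgpl1, which breaks it down irreversibly. They were taken from the count table by gene identifier, and all 9 were found among 55487 genes. RNA was sequenced from E14-Tg2a mESCs in cardiogenic differentiation, with 2 libraries at d4 and 2 at d2. E14-Tg2a is a mouse embryonic stem cell line, and the paper calls the parental line WT beside its enhancer deletion clones. The d2 cells had been 48 h in serum-free medium as embryoid bodies. The d4 cells came from a further 40 h of culture as new aggregates, with 3 human growth factors added, namely VEGF (5 ng/ml), Activin A (8 ng/ml) and BMP4 (0.5 ng/ml). Day, added factors and reaggregation changed together and cannot be told apart.

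The cell membrane lipid sphingomyelin is broken down to ceramide and sphingosine, which the sphingosine kinases phosphorylate to S1P. S1P leaves the cell through a transporter and binds its receptors from outside. S1pr1 couples to the inhibitory Gi proteins, and S1pr2 and S1pr3 also couple to G12 and G13 proteins. In the mouse, S1pr1 in endothelial cells (ECs) is needed for blood vessels to mature, and Spns2 supplies S1P from endothelium. S1pr4 and S1pr5 are known mainly from lymphoid and natural killer cells.

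Total counts were 11397439 and 16851485 in d4 replicates 1 and 2, and 12068584 and 14038796 in d2 replicates 1 and 2. Values of a pair of libraries are given in the order replicate 1, replicate 2 throughout. Levels are in CPM (counts scaled to library size) with TMM normalization, and a level per kilobase of merged exons is used wherever genes are set against each other. A gene passed the test at an adjusted p under 0.01 (edgeR's quasi-likelihood test, two-sided, Benjamini-Hochberg adjustment over 14932 genes tested). The labels call all the cells embryonic stem cells. Of 10 pluripotency markers, 8 fell at d4, and the list summed to 50.1 and 46.1 CPM in the d4 libraries, against 1592 and 1256 CPM in the d2 libraries. Of 15 EC markers, 14 were tested and 11 rose, and their sum was 1626 and 1225 CPM at d4, against 63.5 and 55.5 CPM at d2. All 10 primitive blood markers rose. Many of these markers passed the filter on low counts only through the day where they were high. Examples are Kdr (17 reads in all at d2), Hbb-bh1 (10 at d2) and Utf1 (0 at d4). Such calls are no independent support for a change. Fewer cells of a type and less RNA per cell cannot be told apart in these bulk samples.

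Of the 9 genes, 6 passed the filter on low counts and 3 of these rose at d4, namely S1pr1, S1pr2 and Spns2. Over all genes tested, 12.9% rose and 11.3% fell. Of the 6 tested, 0 fell, in edgeR, in DESeq2 and in limma voom, and 0 were lower at an unadjusted p under 0.05 in edgeR. Both d4 libraries lay above both d2 libraries for 6 of the 9, of which 5 were tested. The same held for 35.8% of all genes tested. S1pr4, S1pr5 and Sphk1 were under the filter and had no test. S1pr4 had 1 read in all at d4 against 9 at d2, and S1pr5 had 3 against 4. At such counts the order of their libraries is limited by depth. Of the 6, S1pr1 passed the filter only through d4, so its place among the 3 that rose was nearly set by the filter.

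The sequence before the start of 2 of the 3 genes that rose is given here because the results turn on them. RefSeq starts on GRCm38.p6 were found for 8 of the 9 genes, all but S1pr1. The 250 bases before the start are printed 5′ to 3′ on the gene's strand, and capitals mark motif matches on either strand. The motifs searched were the cyclic AMP response element (CRE), spelled TGACGTCA, the GATA motif, spelled AGATAA or with a leading T as TGATAA, and the ETS motif, spelled CCGGAA. The motif of AP-1 was spelled TGANTCA, the motif of KLF factors was spelled CCACCC and the E-box motif was spelled CACGTG. No match overlapped another in these windows. No annotated exon on the same strand lies in either window (0 bases).
S1pr2, chr9:20976794-20977043, minus strand: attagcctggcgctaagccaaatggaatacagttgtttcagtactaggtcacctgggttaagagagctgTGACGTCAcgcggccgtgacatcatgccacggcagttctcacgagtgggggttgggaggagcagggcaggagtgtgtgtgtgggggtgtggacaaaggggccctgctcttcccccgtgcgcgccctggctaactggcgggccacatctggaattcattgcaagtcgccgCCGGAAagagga
Spns2, chr11:72475028-72475277, minus strand: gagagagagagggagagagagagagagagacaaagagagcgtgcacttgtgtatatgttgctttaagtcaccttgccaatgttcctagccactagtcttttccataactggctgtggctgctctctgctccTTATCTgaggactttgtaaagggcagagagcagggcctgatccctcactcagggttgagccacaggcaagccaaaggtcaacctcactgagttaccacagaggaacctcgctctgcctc
The S1pr2 window held a CRE match, a match found before 1.55% of 32851 RefSeq starts, and an ETS match, found before 12.0%. The Spns2 window held a single GATA match, which 16.6% of starts had. Of the 8 genes with a start, 4 had an ETS match, among them Sphk2 and Sgpl1, which were not called. A GATA match lay before 2 of the 8, among them Sphk1, which had no test. This Spns2 start lies 14877 bases inside the gene as GENCODE annotates it, so the window is not that of the outermost start. A match is a description of letters and not a site shown to be used.

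S1pr1 was well expressed in both d4 libraries, against 1 read in all at d2. The gene lies at chr3:115710433-115715072 on the minus strand (GRCm38) and shares no exon sequence with another gene. Its reads numbered 270 and 288 in the d4 libraries, against 0 and 1 in the d2 libraries. In normalized units this was 22.9 and 16.9 CPM at d4, against 0 and 0.0759 CPM at d2. The ratio of normalized counts was 492 (95% exact counting interval 87.9 to 19462), and the interval covers counting error only. S1pr1 rose at an edgeR adjusted p of 1.04e-04. It passed the filter only through d4, where it was high, so this p is no independent support for the rise. The call was lost in edgeR without d2 replicate 1 (adjusted p = 0.0182) or d2 replicate 2 (adjusted p = 0.0175), settings in which 0 genes of the whole table were called, and held with either left out in DESeq2. The fitted log2 fold change, 8.68 with all libraries, was 7.87 without d2 replicate 1 and 11.06 without d2 replicate 2. With 1 read at d2 it depends on the prior count and is no measure of size.

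S1pr2, the receptor with the most reads at d2, rose at d4. It lies at chr9:20962361-20976781 on the minus strand. Its level was 46.2 and 45.4 CPM in the d4 libraries, against 19.8 and 17.5 CPM in the d2 libraries, so the days did not overlap. It rose 2.45-fold (log2 1.29 ± 0.21 SE, edgeR adjusted p = 0.00284). Of the 3 S1P genes that rose, it had the highest adjusted p. In edgeR the adjusted p was 0.0308 without d2 replicate 1 and 0.0395 without d2 replicate 2. In DESeq2 it was 0.0370, 0.0733, 0.0104 and 0.0112 without d2 replicate 1, d2 replicate 2, d4 replicate 1 and d4 replicate 2.

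S1pr3 lies at chr13:51408639-51422797 on the plus strand. It had 3.39 and 2.59 CPM in the d4 libraries, against 1.96 and 1.75 CPM in the d2 libraries. The difference did not pass the test (log2 0.68 ± 0.33 SE, edgeR adjusted p = 0.156), though the days did not overlap. S1pr4 (chr10:81497747-81500132, minus strand) had 1 and 0 reads in the d4 libraries, against 4 and 5 reads in the d2 libraries. Its ratio of normalized counts was 0.0979 (95% exact counting interval 0.00223 to 0.707). S1pr5 (chr9:21242912-21248443, minus strand) had 1 and 2 reads at d4, against 2 and 2 reads at d2, a ratio of 0.661 (0.0968 to 3.91). Both were under the filter on both days. Of 10 markers of lymphocytes and natural killer cells, where S1pr4 and S1pr5 are best known, 7 had 0 counts at d4 and 6 had 0 counts at d2, Ptprc (the pan-leukocyte antigen CD45) among them on both days. The only one of the list that was tested, Lck, fell.

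**Figure D1:**
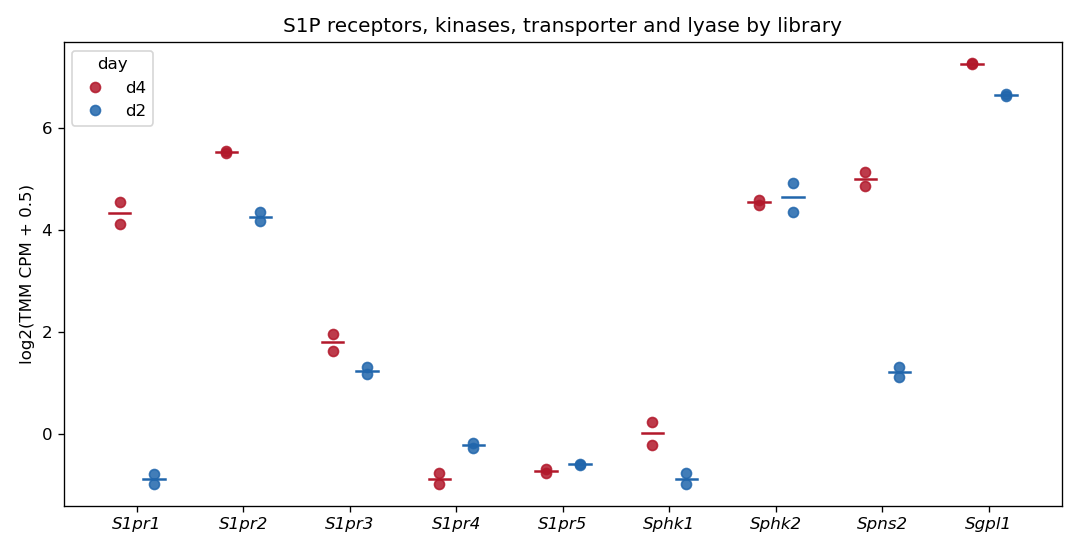
Level of each gene in each library as log2(TMM CPM + 0.5) on the vertical axis, with d4 in red and d2 in blue; a point is a library and a bar the mean of the 2. S1pr1 and Spns2 show the widest gaps, Sphk2 overlaps between days, and S1pr4, S1pr5 and Sphk1 sit near the bottom of the scale.

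Set per kilobase of exon, the 5 receptors summed to 13.0 ± 1.59 at d4 and 2.98 ± 0.204 at d2 (RPKM, SD, n = 2 each). S1pr1 made up 53.1% and 46.8% of this sum in the d4 libraries, against 0% and 0.879% in the d2 libraries. S1pr2 made up 41.0% and 47.9% at d4, against 79.4% and 77.6% at d2. S1pr3 held 5.13% ± 0.34 at d4 and 13.9% ± 0.20 at d2 (SD, n = 2 each). The annotated exons measure 3046 bases for S1pr1 and 7971 bases for S1pr2, and the order of the 2 at d4 turned with the length used. In raw read counts S1pr1 took 28.8% and S1pr2 66.7%, and per kilobase of coding sequence they took 27.2% and 68.5%. On every scale S1pr1 was under 1% at d2. With 2 libraries against 2 an exact permutation test cannot go below a two-sided p of 0.333, so these shares are given without a test.

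**Figure D2:**
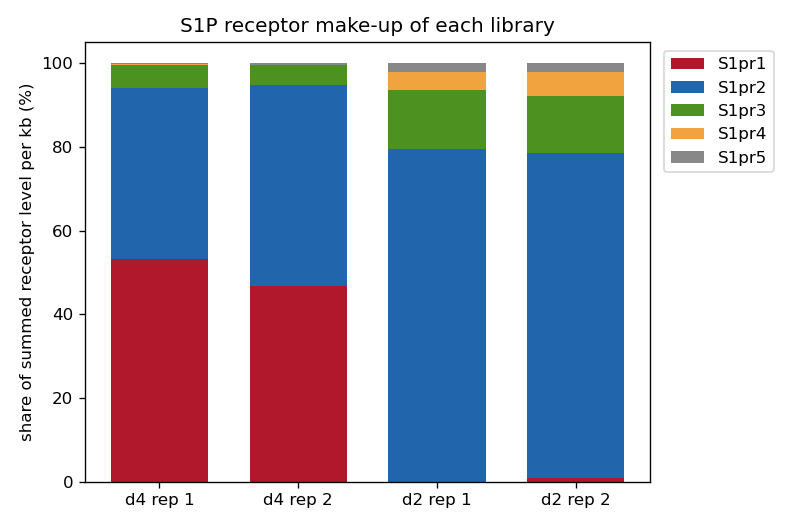
Share of each receptor in the summed receptor level per kilobase of exon, in percent, for each library, with d4 left and d2 right. S1pr2 fills most of the d2 bars (79.4% and 77.6%), and S1pr1 and S1pr2 together fill most of the d4 bars.

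The kinases gave no call. Sphk2 (chr7:45709467-45718002, minus strand) carried nearly all kinase reads, at 23.7 and 21.9 CPM in the d4 libraries, against 29.7 and 20.0 CPM in the d2 libraries, and the days overlapped (log2 -0.13 ± 0.26 SE, edgeR adjusted p = 0.730). The sign of this uncalled difference turned without d2 replicate 1 (log2 0.19). Exons of Dbp and Rpl18 on the other strand cover 21.9% of the Sphk2 exons, and the counting was strand-specific. Sphk1 (chr11:116530925-116536674, plus strand) had 8 and 6 reads in the d4 libraries, against 1 and 0 reads in the d2 libraries, a ratio of 12.3 (95% exact counting interval 1.88 to 522), and stayed under the filter. Sphk1 was 1.91% ± 0.74 of the kinase level per kilobase at d4 and 0.120% ± 0.17 at d2 (SD, n = 2 each).

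Spns2, which exports S1P, rose at d4. It lies at chr11:72451638-72489904 on the minus strand. Its level was 34.6 and 28.6 CPM in the d4 libraries, against 1.96 and 1.67 CPM in the d2 libraries. It rose 17.3-fold (log2 4.11 ± 0.28 SE, edgeR adjusted p = 1.06e-04). The call was lost in edgeR without d2 replicate 1 (adjusted p = 0.0182) or d2 replicate 2 (adjusted p = 0.0176) and held with either left out in DESeq2. Sgpl1, the lyase (chr10:61098642-61147703, minus strand), had the highest level of the 9 per kilobase on both days. It had 153 and 154 CPM in the d4 libraries, against 98.0 and 101 CPM in the d2 libraries. The difference missed the threshold (log2 0.62 ± 0.18 SE, edgeR adjusted p = 0.0349).

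Ordered per kilobase at d4, Sgpl1 (25.0 RPKM) stood first. Spns2 (7.74), S1pr1 (6.53), S1pr2 (5.74) and Sphk2 (5.48 RPKM) followed, and each of these overlapped its neighbour between libraries. S1pr3 (0.669 RPKM) and Sphk1 (0.108 RPKM) came next, and S1pr5 (0.0405) and S1pr4 (0.0177 RPKM) overlapped. At d2 the order was Sgpl1 (16.2), Sphk2 (5.98), S1pr2 (2.34), Spns2 (0.445) and S1pr3 (0.416 RPKM), of which Spns2 and S1pr3 overlapped. S1pr4 (0.148), S1pr5 (0.0631), S1pr1 (0.0125) and Sphk1 (0.00856 RPKM) were lowest, and S1pr1 and Sphk1 overlapped. S1pr1 had a level above 57.2% of the tested genes at d4 and above 1.43% at d2. These levels rest on the merged exon length, and the order after Sgpl1 at d4 depends on it. S1pr2 has 7971 bases of exon, of which 1056 are coding. In CPM its d4 mean (45.8) was above that of Spns2 (31.6).

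The genes closest to each risen gene were found by distance in log2(CPM + 0.5) over the 4 libraries. Hoxb2 and Gm45889 were nearest to S1pr1, at distances of 0.22 and 0.23. Hoxb2 had 258 and 280 reads at d4, against 0 and 0 reads at d2. Ndn and Nsmf were nearest to S1pr2 (0.13 and 0.17), and Fosl2 and Npl to Spns2 (0.26 and 0.30).

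Of 61 other genes of S1P and related lipid metabolism and signalling in 5 lists, 52 were tested, 9 rose and 5 fell. This was 17.3% and 9.6% of the 52, near the 12.9% and 11.3% of all genes tested. The same shares over all genes are the reference for the count of each list. The 52 had a median log2 fold change of 0.21, against -0.03 over all genes tested. All 14 lost their call in edgeR without d2 replicate 1 or without d2 replicate 2 (0 called). Among genes of S1P removal and transport, 2 of 9 tested rose. Mfsd2b, the S1P exporter of erythroid cells, had 20.8 and 16.2 CPM in the d4 libraries, against 0.654 and 0.304 CPM in the d2 libraries (log2 5.26 ± 0.41 SE, edgeR adjusted p = 1.59e-04). Mfsd2b passed the filter only through d4, where it was high, so its call is no independent support for a rise. The 10 primitive blood markers summed to 537 and 374 CPM at d4, against 3.52 and 2.89 CPM at d2, and their part in the Mfsd2b level was not tested. Abca1, a lipid transporter, had 5.59 and 11.2 CPM at d4, against 1.80 and 2.35 CPM at d2 (edgeR adjusted p = 0.00887).

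Among genes of ceramide and sphingomyelin synthesis, 3 of 17 tested rose and 1 fell, and the median log2 fold change was 0.16. The ceramide synthases, which differ in the fatty acid they attach, did not move together. Cers2 had 136 and 117 CPM at d4, against 61.2 and 65.4 CPM at d2, and Cers4 rose 2.04-fold. Cers6 had 6.86 and 6.24 CPM at d4, against 17.7 and 21.7 CPM at d2 (log2 -1.59, edgeR adjusted p = 0.00260). Sgms1, a sphingomyelin synthase, rose 3.59-fold. Of 9 tested ceramidases, sphingomyelinases and related hydrolases, 2 rose and 2 fell (median log2 0.41). Acer2, a Golgi ceramidase that yields sphingosine, had 9.06 and 6.82 CPM at d4, against 49.1 and 54.7 CPM at d2 (log2 -2.71, edgeR adjusted p = 2.71e-04). Smpd3, the neutral sphingomyelinase 2, was 10.9-fold lower at d4, with 3 and 3 reads at d4, against 35 and 25 reads at d2. Smpd3 passed the filter only through d2, where it was high, so its call is no independent support for a fall. Smpd1, the acid sphingomyelinase, rose 2.34-fold. Galc, a lysosomal galactosylceramidase, rose 2.16-fold.

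**Figure D3:**
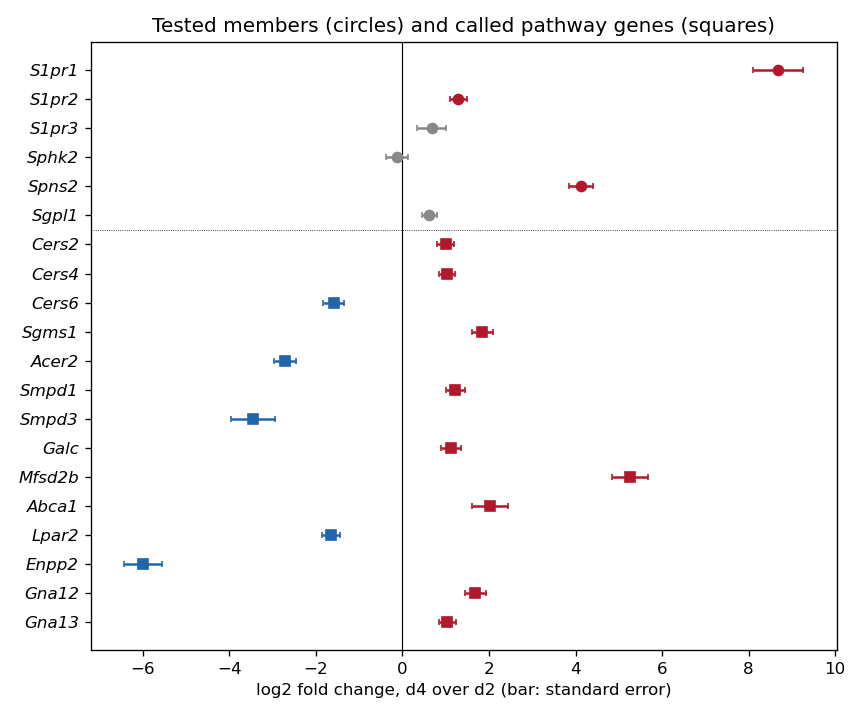
Log2 fold change of d4 over d2 with its standard error for the 6 tested S1P genes (circles) and the 14 called genes of the 5 lists (squares), in red where higher at d4, in blue where lower and in grey where the test was not passed. S1pr1 lies farthest right, but its fitted value rests on 1 read at d2 and depends on the prior count; Enpp2 lies farthest left.

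Markers of several cell types moved with the genes that rose. The 10 mural and fibroblast markers summed to 609 and 571 CPM at d4, against 34.1 and 31.7 CPM at d2. Of the 7 tested, 5 rose, among them Pdgfra, Rgs5, Pdgfrb and Col1a1, the 4 with the highest mean level, and 1 fell, the contractile gene Cnn1. The paper lists Pdgfra as a mesodermal marker. The other 3 of the 10 were under the filter. Their reads in all were 12 at d4 and 12 at d2 for Cspg4, 5 and 18 for Myh11, and 21 and 1 for Col3a1. The EC and primitive blood sums given above were also higher at d4. Of the other lists, 4 of 9 tested cardiomyocyte markers rose and 3 fell, and all 7 tested neuroectoderm markers fell. Of 10 endoderm markers, 5 were under the filter, 4 rose and 1, Epcam, fell. Those that rose include Gata6, which the paper lists as an endothelial marker. The 10 endoderm markers summed to 162 and 114 CPM at d4, against 250 and 260 CPM at d2. Epcam alone had 7.62 and 5.65 CPM at d4, against 247 and 257 CPM at d2. The fall of the sum is that of Epcam, and the 4 that rose went the other way. At d4 no EC marker was at 0 counts, and at d2 Emcn and Sox7 were. Many of the marker calls came from genes that passed the filter only through the day where they were high. Examples are Rgs5, with 1 read in all at d2, and Elavl3, with 0 at d4. Such calls are no independent support for a change. The part of each cell type in the levels of S1pr1, S1pr2 and Spns2 was not tested.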

How the data were processed

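RNA-seq was done on 4 libraries, 2 at d4 and 2 at d2. Per the labels and the study's methods, libraries kept strand and were read from both ends (75 bp). The authors used cutadapt 2.9 for trimming, STAR 2.6.0a for alignment to mm10/GRCm38 and, for counts per gene on the gene's own strand, featureCounts of Rsubread 2.0.1, leaving out reads that map to more than 1 place. The deposited values are raw counts with no filter. Symbols and exon lengths came from GENCODE M21, which matched 55227 of 55487 IDs.

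The filter asked that a day's summed counts exceed 0.5 CPM by a proportion test (one-sided, adjusted p under 0.05) on either day. d4 was compared with d2 in R 4.3.3 with edgeR 4.0.16 (TMM, glmQLFTest, day as the only term). Alternatives were other scalings and filters, DESeq2 1.42.0, limma voom 3.58.1, other thresholds, thinning, a replicate block and leaving out each library. The scripts were tested on simulated data. The members and lists were chosen with earlier results of these data known. Named genes were all 9 members, the 2 nearest genes of each called member, and up to 4 genes per direction and list past the test. Of marker lists, up to 4 genes with the highest mean CPM could be named. Markers at 0 counts, Lck, Cnn1, Cspg4, Myh11 and Col3a1 were named after their values were seen. Labels name 2 replicates per day, and the study's methods give 2 independent differentiation experiments. A floor of 3 counts was the limit under which no fold is given against 0.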

Additional observations from a re-analysis of the deposited data

How the results depend on the processing

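The 3 members called higher, and none called lower, stayed so under every other scaling, filter and tool tried on all 4 libraries; at an adjusted p under 0.05 and in the replicate block 4 were called, Sgpl1 being added (block adjusted p = 0.00299). Leaving out each library in turn gave 0 to 3 members higher, 0 to 2269 genes higher and 0 to 2475 lower over the whole table, and 0 to 11 list genes higher and 0 to 6 lower; the 0 values are edgeR without either d2 library. With DESeq2 the counts without d2 replicate 1, d2 replicate 2, d4 replicate 1 and d4 replicate 2 were 1041, 979, 1248 and 1268 genes higher, with 725 and 716 lower without d2 replicate 1 and 2. Sphk2, never called, ranged from log2 -0.43 to 0.19 (0.18 in DESeq2 without d2 replicate 1). The replicate block called 3478 genes higher and 3496 lower (15 and 8 of the lists), no filter 2901 and 2873, and an adjusted p under 0.05 gave 2991 and 2679 (9 lower in the lists). Same-numbered libraries deviated together (r = 0.54 across genes, which are not independent), but with 2 pairs the number is not shown to pair them. At d4 S1pr1 was 50.0% of receptor signal per exon kilobase, 28.8% of raw counts and 27.2% per coding kilobase, and S1pr2 44.5%, 66.7% and 68.5%. The cause of the changes in calls was not tested. S1pr4, S1pr5 and Sphk1 are limited by depth, at 14 reads or fewer per day.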

Other observations

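Lysophosphatidic acid (LPA), a lipid related to S1P, has receptors of its own and is made outside the cell by autotaxin (Enpp2). Of 7 genes of this system 5 were tested and 2 fell (median log2 fold change -1.65), where 11.3% of all genes tested fell. The other 3 did not pass the test, and the 5 did not move together. The log2 fold changes of the 3 that were not called were 1.65, -0.32 and -3.01. Enpp2 had 2.12 and 4.82 CPM in the d4 libraries, against 199 and 254 CPM in the d2 libraries (log2 -6.00 ± 0.43 SE, edgeR adjusted p = 1.24e-04). Lpar2 had 16.8 and 14.8 CPM at d4, against 50.9 and 48.4 CPM at d2 (log2 -1.65, edgeR adjusted p = 0.00109).

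Of 12 tested genes for G proteins, receptor kinases and arrestins, 2 rose (median log2 fold change 0.29). This was 16.7%, near the 12.9% of all genes tested. Gna12 had 170 and 151 CPM at d4, against 59.0 and 41.0 CPM at d2 (log2 1.68, edgeR adjusted p = 0.00187). Gna13 had 142 and 125 CPM at d4, against 60.7 and 69.5 CPM at d2 (log2 1.04, edgeR adjusted p = 0.00654). Both encode G protein alpha subunits. The 3 Gi genes did not pass the test.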
